A study of Mus musculus with 18 samples.

Results

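The healing of the infarcted mouse heart was followed through the 9 libraries, of 18 in the series, whose last injection was phosphate-buffered saline (PBS). They form a course of 3 groups with 3 libraries each, with hearts taken on day 4, day 8 and day 15 after myocardial infarction, the death of heart muscle downstream of a blocked coronary artery. The day 4 hearts had received PBS alone, on day 3. The day 8 hearts had received the nanomedicine aNMP-2a on day 3 and PBS on day 7, and the day 15 hearts aNMP-2a on day 3, aNMP-2b on day 7 and PBS on day 14. All groups share the infarction, and the labels used here give no strain, age or sex and do not say whether the 3 libraries of a group came from separate animals. Day and earlier nanomedicine change together along this course, so the passage of time and the earlier injections cannot be told apart, nor can any batch that went with a day. No uninfarcted heart was analysed here. The other 9 libraries, whose last injection was a nanomedicine, serve below only for comparison.

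As background, an infarct heals in overlapping phases. Neutrophils and monocytes enter first and clear dead muscle, macrophages and lymphocytes then change in kind and number, fibroblasts proliferate and become contractile myofibroblasts that lay down collagen, and the scar finally matures while these cells withdraw. Interferon-stimulated genes are switched on by cells that sense nucleic acid from dying muscle or receive interferon. The epicardium, the mesothelial sheet over the heart, is reactivated by injury and re-expresses developmental factors such as Wt1.

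Frozen hearts were homogenised and polyadenylated RNA was sequenced, and levels are FPKM, fragment counts scaled for transcript length and library size. Of 18414 genes, 12708 reached 1 FPKM in at least 3 of the 9 libraries and were tested. FPKM summed to between 722427 and 777510 per library and 12218 to 12770 genes reached 1 FPKM, while total reads are unknown, so no counting interval is given. Cardiac muscle genes were high in every library: Myh6, the main adult myosin heavy chain of the mouse, lay between 3363 and 5548 FPKM. Markers of fibroblasts (Dcn, 703 to 1137 FPKM), endothelium (Pecam1, 97.8 to 150.03 FPKM) and macrophages (C1qa, 148 to 487 FPKM) were present throughout. Among markers of neighbouring organs, the lung gene Scgb1a1 was at 45.5 FPKM in day 15 replicate 3 and at 0.71 FPKM or below in the other 8. The lung gene Sftpc reached 1.82 FPKM in day 8 replicate 2, and the skeletal muscle genes Myh1 and Myh4 reached 1.14 and 0.2 FPKM in day 8 replicate 1.

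Several libraries stood apart from their group. Replicate 1 of day 8 correlated with its replicates 2 and 3 at Pearson's r of 0.958 and 0.964 (log2 values across the tested genes, which are not independent replicates), against 0.986 between replicates 2 and 3, 0.992 for each pair of day 4, and 0.971 to 0.982 on day 15. On the first principal component it lay at -31.7, just beyond the day 4 libraries (-17.8 to -30.1) and away from the other day 8 libraries (21.7 and 15.6). On the second component it lay at -27.6, away from both the day 4 libraries (7.79 to 15.6) and the other day 8 libraries (-10.3 and -7.96). Myl7, the regulatory myosin light chain of atrial muscle, marked a second difference: it was at 1.28, 0.67 and 0.24 FPKM on day 4, at 1.86, 1350 and 8.26 FPKM on day 8, and at 2.53, 85.1 and 930.1 FPKM on day 15. Day 8 replicate 2 and day 15 replicates 2 and 3 thus held far more Myl7 than the other 6 libraries. Over the 8 atrial genes tested, day 15 replicate 2 stood less apart. Its median log2 level against the day 4 mean was 1.65, against 1.26 in day 8 replicate 1. Counts below are therefore also given without day 8 replicate 1, and list medians are also given without the 3 Myl7-rich libraries where they move by over 1.5 times. That setting leaves day 15 with replicate 1 alone.

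**Figure D1:**
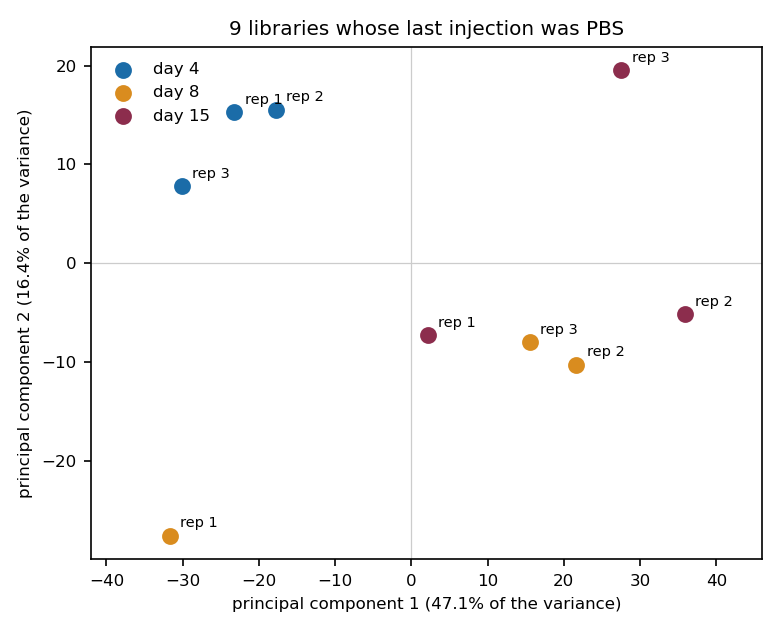
The 9 libraries on the first principal component (x axis, 47.1% of the variance) and the second (y axis, 16.4%) of log2(FPKM + 0.5) over the tested genes. Each point is 1 library, coloured by tissue day, and day 8 replicate 1 lies at -31.7 on the first component and -27.6 on the second, apart from every other library.

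Between day 4 and day 15, 14 genes rose (0.11%) and 5 fell (0.0393%) among 12708 at an adjusted p under 0.05 (0.15% called, limma on log2(FPKM + 0.5) with Benjamini-Hochberg adjustment). The genes that rose were mainly those of fat cells and mesothelium. Among them, Adipoq, Plin1, Cidec, Retn, Car3 and Mup22 were below 1 FPKM in every day 4 library. These were tested because they were high later, so the count of 14 is in part a description. The genes that fell included Cdkn3, a cell cycle phosphatase, and Uba7, the activating enzyme of the ubiquitin-like protein ISG15. At an unadjusted p under 0.05 there were 663 higher genes (5.22%) and 1411 lower genes (11.1%), 16.3% in all. The day 15 and day 4 libraries did not overlap for 1351 genes that were higher on day 15 (10.6%) and for 2406 that were lower (18.9%), and list counts below are read against these shares. The median log2 difference over all tested genes was -0.02. The number of calls depended on single libraries: it was 4, 0 and 14 without day 4 replicates 1, 2 and 3. Leaving out day 8 replicates 1, 2 and 3 in turn gave 665, 11 and 8 calls. Leaving out day 15 replicates 1, 2 and 3 in turn gave 30, 0 and 15 calls. Day 8 libraries enter this contrast only through the shared estimate of the spread and the choice of genes tested. The 665 genes called without day 8 replicate 1 were 130 that rose (1.03%) and 535 that fell (4.24%) of 12608 tested, and held all 19 of the genes above.

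**Figure D2:**
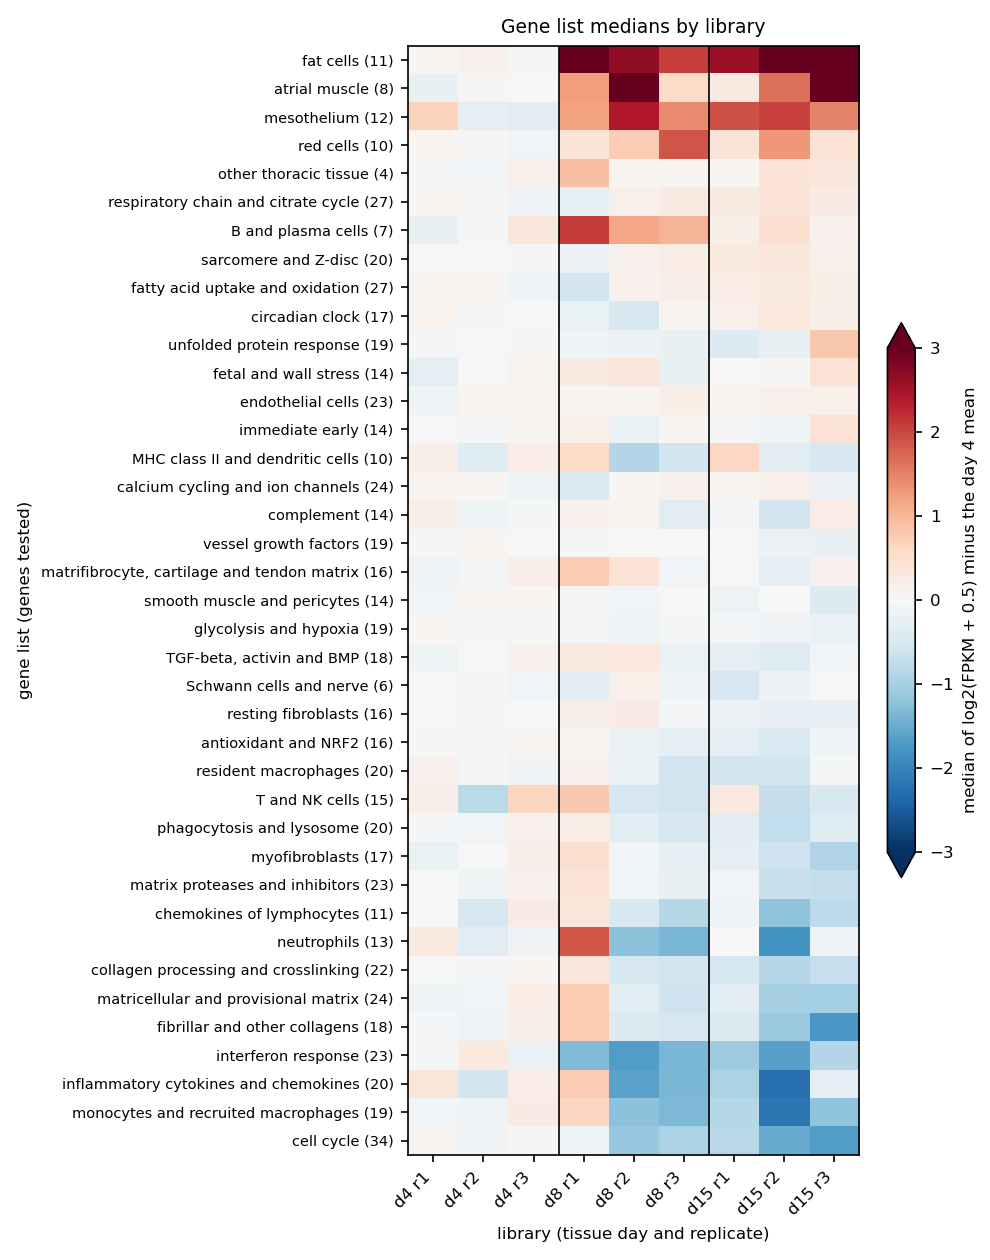
Median over each gene list (rows, with the number of genes tested) of log2(FPKM + 0.5) minus the mean of the 3 day 4 libraries, for each of the 9 libraries (columns). Fat cell genes stand at 2.08 to 4.63 in all day 8 and day 15 libraries, cell cycle genes at -0.84 to -1.68 on day 15, and day 8 replicate 1 is above 0 for collagens, neutrophils and recruited macrophages.

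Several transcripts of fat cells, Cfd, Adipoq and Car3 among them, were near 0 on day 4 and higher later. Cfd (chr10:79890853-79892655), the complement protease factor D that fat cells secrete, was at 0.92, 1.29 and 0.23 FPKM in the day 4 libraries, 197, 70.8 and 75.2 FPKM on day 8, and 120, 337 and 614 FPKM on day 15. Every later library was above every day 4 library, and the log2 difference between day 15 and day 4 was 7.90 ± 0.64 (SE, adjusted p = 0.0106). Adipoq (chr16:23146536-23157968), the fat cell hormone adiponectin, was at 0.07, 0.07 and 0 FPKM on day 4, 26.8, 9.33 and 8.15 FPKM on day 8, and 13.5, 46.4 and 68.1 FPKM on day 15. Its groups did not overlap either, and it rose by 6.03 ± 0.60 on the log2 scale (adjusted p = 0.0124). Car3, a carbonic anhydrase abundant in fat, rose by 6.86 ± 0.63 from 0.12 to 0.54 FPKM on day 4 to 35.9 to 193 FPKM on day 15 (adjusted p = 0.0106). Retn, the hormone resistin, rose by 5.98 (adjusted p = 0.0328), and the lipid droplet proteins Cidec and Plin1 rose by 4.94 (adjusted p = 0.0468) and 3.88 (adjusted p = 0.0413). Of 13 fat cell genes, 11 were tested and 6 of these rose (0.11% of all genes did). Adipoq, Plin1, Cidec, Retn, Car3 and Adrb3 were below 1 FPKM in every day 4 library. They entered the test only through the later libraries in which they were high, so their adjusted p-values and this count are descriptions only.

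The lipid genes that heart muscle and capillaries share with fat did not move to that extent. Lpl, the lipase of the capillary wall, was at 983 to 1151 FPKM on day 4 and 1037 to 1351 FPKM on day 15, and these ranges overlapped. Fabp4, a fatty acid carrier of endothelium and fat, was 0.44 ± 0.15 higher on the log2 scale, without passing the test (adjusted p = 0.227). Ucp1, the uncoupling protein of brown fat, was at 10.5 FPKM in day 15 replicate 3 and at 0.1 FPKM or below in the other 8 libraries. Mup22, one of the near-identical major urinary proteins among which reads can be split, was at 0 FPKM in all day 4 libraries and at 22.6, 20.4 and 117 FPKM on day 15 (adjusted p = 0.0299). Mup22 too entered the test only through later libraries in which it was high, so its p-value is a description only.

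Fat transcripts also differed widely within groups outside this course. Cfd was at 23.6, 2.22 and 17.3 FPKM in the day 4 libraries that had received aNMP-2a, and at 603, 26.6 and 2.47 FPKM in the day 15 libraries that had received all 3 nanomedicines. The summed FPKM of the 13 fat genes was 80.0 to 87.3 on day 4, 210.0 to 450.1 on day 8 and 301 to 1264 on day 15 in the PBS-ending course, against 84.9 to 1172 in the day 15 nanomedicine-ending libraries. How much fat or pericardium was left on each heart is not recorded in the labels, and its part in the rise was not tested.

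Mesothelial genes moved in the same direction. Wt1 (chr2:105126529-105173614), a transcription factor of epicardium and its descendants, was at 2.57, 2.52 and 2.37 FPKM on day 4, 7.05, 6.01 and 5.71 FPKM on day 8, and 5.82, 5.71 and 5.17 FPKM on day 15. The replicates were close to each other and day 4 lay below all later libraries, so that a log2 difference of 1.02 ± 0.10 between day 15 and day 4 passed the test (adjusted p = 0.0124). Lrrn4, a membrane protein that marks mesothelium, was at 1.5, 0.57 and 0.47 FPKM on day 4 and 6.48, 10.9 and 5.84 FPKM on day 15, and rose by 2.64 ± 0.33 (adjusted p = 0.0342). Upk3b, a uroplakin of the mesothelial surface, stood at 3.61, 1.36 and 1.02 FPKM on day 4, 10.8, 42.7 and 36.0 FPKM on day 8, and 27.8, 68.9 and 30.6 FPKM on day 15. Its difference of 4.12 ± 0.59 missed the threshold (adjusted p = 0.0558), although the groups did not overlap. Of 12 mesothelial genes tested, 2 rose and 10 were higher on day 15 without overlap, with a list median of 1.79. Without day 8 replicate 1 the test called 8 of them as rising, where 1.03% of all genes rose. Bnc1 was below 1 FPKM in every day 4 library and entered the test through later ones, so counts that hold it are descriptions.

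Other genes that rose had a similar course. Rspo1, a secreted enhancer of Wnt signalling, was at 0.86 to 1.27 FPKM on day 4, 3.63 to 5.94 FPKM on day 8 and 5.3 to 8.8 FPKM on day 15, a rise of 2.30 ± 0.22 (adjusted p = 0.0106). Nkain4, which binds a subunit of the sodium pump, rose by 3.26 ± 0.39, from 1.03 to 1.95 FPKM to 13.3 to 27.5 FPKM (adjusted p = 0.0328). Cyp2s1, a cytochrome P450 enzyme, rose by 2.52 (adjusted p = 0.0106), Fam180a by 1.75 (adjusted p = 0.036) and the tetraspanin-like Tm4sf5 by 1.73 (adjusted p = 0.0413). The levels of Cyp2s1 are not given here. Cyp2s1 may have entered the test only through later libraries in which it was high, so its p-value is read as a description only. The summed FPKM of the 13 mesothelial genes was 23.4 to 49.4 on day 4, 104.5 to 174.5 on day 8 and 126.7 to 186.1 on day 15, with no member at 0 in any of these libraries. In the nanomedicine-ending libraries of day 15 the same sum was 535.8, 16.7 and 11.2. The amount of surface tissue in each sample was not recorded, and its part in these rises was not tested.

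Atrial genes were higher after day 4, by amounts that differed widely between libraries. Their median against the day 4 mean was 1.26, 5.29 and 0.58 on day 8 and 0.27, 1.65 and 4.84 on day 15, against -0.23 to 0.03 on day 4. Nppa, atrial natriuretic peptide, which stressed ventricle also makes, was at 98.8, 174 and 475 FPKM on day 4, 1998, 4203 and 326 FPKM on day 8, and 664, 426 and 2499 FPKM on day 15. Its day 15 range overlapped that of day 4, and the difference of 2.14 ± 1.03 did not pass (adjusted p = 0.344). Sln, sarcolipin, a calcium pump inhibitor of atrial muscle, was at 0 FPKM in all day 4 libraries and at 445 FPKM in day 8 replicate 2 and 426 FPKM in day 15 replicate 3. Bmp10, a growth factor of the right atrium, was at 89.6 FPKM in day 8 replicate 2 and at 0 in the other 8 libraries. All 8 atrial genes tested were higher on day 15 and on day 8, with 0 called. Of these, 3 did not overlap on day 15 (10.6% of all genes) and 4 on day 8 (9.17% of all genes). Sln and Mybphl were below 1 FPKM in every day 4 library and entered the test through later ones. When an atrial score entered the model as a covariate, no gene of the whole table was called between day 15 and day 4. The count was also 0 without day 4 replicate 2 and in 1 fit of all 18 libraries, and the part of atrial RNA in the calls was not tested. When the 3 libraries with at least 50 FPKM of Myl7 were left out, 1 gene was called.

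**Figure D3:**
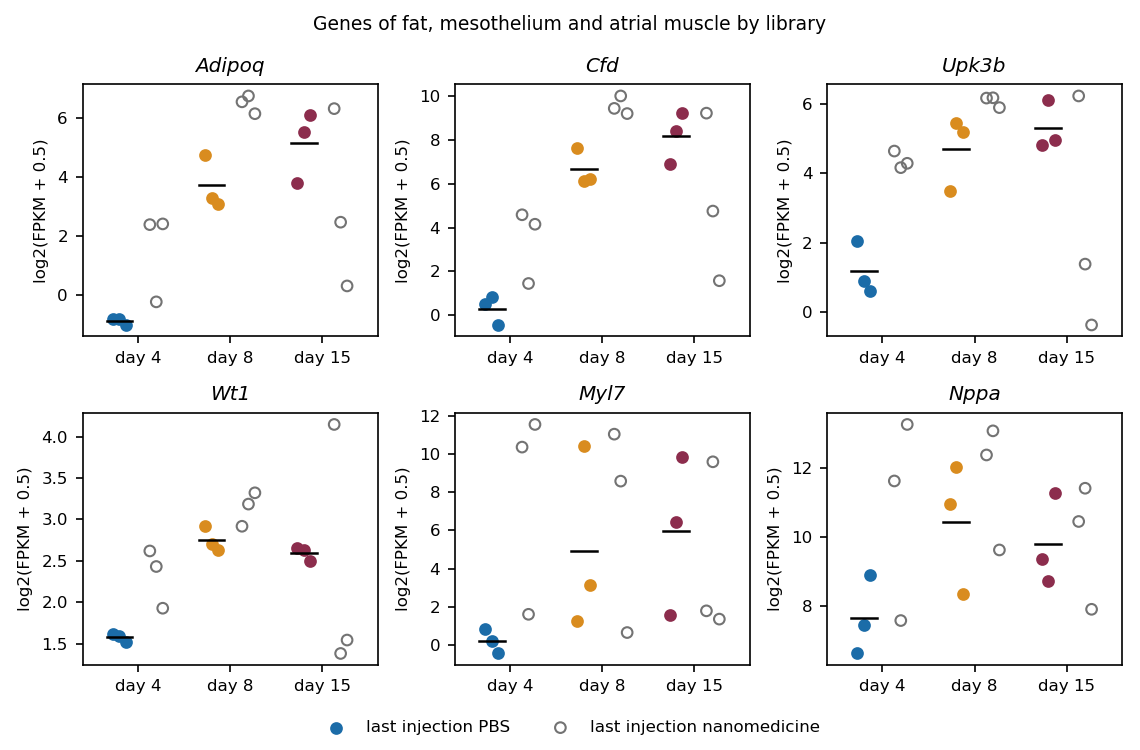
Levels of Adipoq and Cfd (fat), Upk3b and Wt1 (mesothelium) and Myl7 and Nppa (atrial muscle) as log2(FPKM + 0.5) by tissue day. Filled points are the 9 libraries whose last injection was PBS, with black lines at group means, open points are the 9 whose last injection was a nanomedicine; Myl7 ranges from 1.86 to 1350 FPKM within the PBS-ending day 8 group.

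Interferon-stimulated genes were lower after day 4, and most clearly so on day 8. Between day 4 and day 8, 20 genes rose (0.157%) and 26 fell (0.205%) among 12708 (0.362% called), while 4.34% were higher and 3.33% lower at an unadjusted p under 0.05 (7.66% in all). Of the 26 that fell, 12 were among the 23 interferon response genes tested. The libraries did not overlap for 22 of the 23, all lower on day 8, where 5.39% of all genes were lower without overlap, and the list median was -1.50. Without day 8 replicate 1, 13 of the 23 fell, where 0.254% of all genes rose and 0.793% fell. The total of 46 calls depended on other libraries too, with 132 calls without day 8 replicate 1, 0 without its replicate 2, 3 without replicate 3, and 1, 0 and 22 without day 4 replicates 1, 2 and 3.

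Promoter sequences of 3 of the genes that fell by day 8 are printed to show the interferon-stimulated response element, a short element shared by many genes that interferon induces. Each runs from 120 bases before the start of transcription to 30 bases after it, 5′ to 3′ in the direction of the gene (RefSeq, GRCm38.p6). Capitals mark 2 copies of GAAA separated by any 2 bases, on either strand, and overlapping matches are shown as 1 run.
Irgm1 (chr11:48871391-48871540, minus strand): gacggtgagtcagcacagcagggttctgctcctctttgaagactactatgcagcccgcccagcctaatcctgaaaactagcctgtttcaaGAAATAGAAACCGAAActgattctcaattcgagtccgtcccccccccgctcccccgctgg
Gbp3 (chr3:142559924-142560073, plus strand): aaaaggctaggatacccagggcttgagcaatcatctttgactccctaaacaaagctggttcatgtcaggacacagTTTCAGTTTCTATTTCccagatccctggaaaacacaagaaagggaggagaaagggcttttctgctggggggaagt
Igtp (chr11:58199436-58199585, plus strand): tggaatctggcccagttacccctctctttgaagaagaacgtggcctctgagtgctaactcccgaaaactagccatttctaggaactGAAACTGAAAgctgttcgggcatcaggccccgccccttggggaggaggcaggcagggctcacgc
This motif occurred in the promoters (300 bases) of 12 of the 17 interferon response genes that had a table entry (70.6%). The share was 4.0% among the 10142 tested genes with an entry. The motif was chosen after the values had been seen, and a match is a description of letters, not a measured binding site.

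Gbp10 (chr5:105215699-105239533), a guanylate-binding protein that attacks the compartments of intracellular parasites, was at 26.04, 22.3 and 22.9 FPKM on day 4, 2.61, 1.0 and 1.06 FPKM on day 8, and 8.0, 2.61 and 5.23 FPKM on day 15. It was highest in all day 4 libraries and fell by day 8 by 3.64 ± 0.38 on the log2 scale (adjusted p = 0.0208), while at day 15 it was -2.18 ± 0.38 from day 4 without passing the test (adjusted p = 0.0765). Gbp6, of the same family, was at 134, 171 and 93.5 FPKM on day 4 and 21.4, 18.0 and 21.3 FPKM on day 8, a fall of 2.65 ± 0.31 (adjusted p = 0.0209), and at 46.2, 24.6 and 56.0 FPKM on day 15. Reads can be split between members of this near-identical family. Among the immunity-related GTPases, Igtp was at 361, 566 and 194 FPKM on day 4, 41.2, 22.4 and 33.9 FPKM on day 8, and 111, 43.3 and 39.2 FPKM on day 15. It fell by 3.42 ± 0.49 by day 8 (adjusted p = 0.0336), as Irgm1 did by 2.25 ± 0.27 (adjusted p = 0.0209) and Iigp1 by 2.65 ± 0.41 (adjusted p = 0.0456).

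Other genes of the response had the same direction. Irf7, which amplifies interferon production, was at 162 to 167 FPKM on day 4 and 37.6 to 53.3 FPKM on day 8, and fell by 1.83 ± 0.28 (adjusted p = 0.0449). Ifit3, an antiviral protein that binds foreign RNA, fell by 1.68 ± 0.21 (adjusted p = 0.0209), and Xaf1, an interferon-induced regulator of apoptosis, by 1.28 ± 0.15 (adjusted p = 0.0209). The uncharacterised gene 3300002I08Rik fell with them, from 26.1 to 54.6 FPKM to 5.89 to 7.49 FPKM (adjusted p = 0.0209).

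By day 15 the interferon genes were still below day 4, by less. None of its 23 members was called against day 4, 22 had an unadjusted p under 0.05 (all lower), and 20 were lower without overlap, with a median of -1.15 and a smallest adjusted p of 0.0558 in limma. Without day 8 replicate 1, 15 of the 23 fell, where 4.24% of all genes did. Uba7 (chr9:107975567-107984056) was called in the full course: it was at 45.7, 53.3 and 41.2 FPKM on day 4, 22.6, 19.4 and 21.5 FPKM on day 8, and 26.3, 21.4 and 24.6 FPKM on day 15. Its day 4 libraries lay above all 6 later ones, and it fell by 0.94 ± 0.12 by day 15 (adjusted p = 0.0336). Erap1, a protease of the endoplasmic reticulum that trims peptides for MHC class I, fell from 16.4 to 17.2 FPKM to 10.04 to 11.7 FPKM (-0.61 ± 0.08, adjusted p = 0.0336), and Lgals9, galectin-9, from 76.5 to 84.2 FPKM to 47.3 to 54.9 FPKM (-0.66 ± 0.09, adjusted p = 0.0413). Between day 8 and day 15 all 23 members were higher, with a median of 0.29, but 0 were called and only 1 did not overlap, where 3.19% of all genes were higher without overlap.

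**Figure D4:**
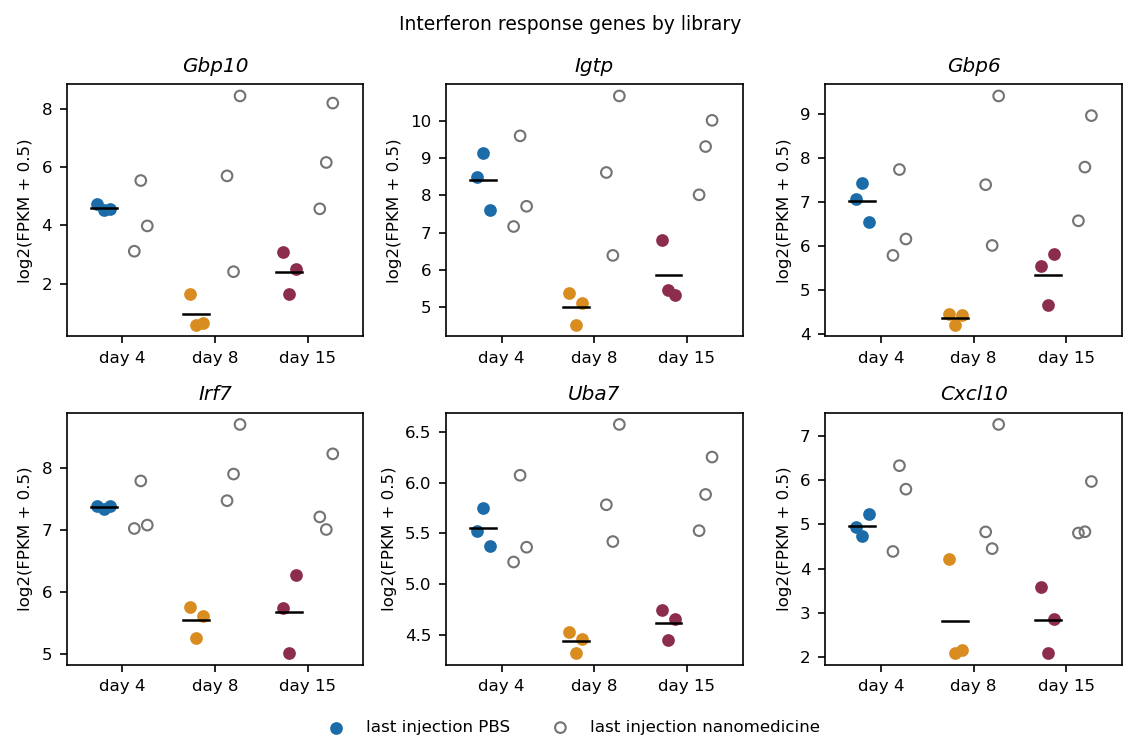
Levels of 6 interferon-related genes as log2(FPKM + 0.5) by tissue day, drawn as in the plot of fat, mesothelium and atrial genes. In the PBS-ending libraries (filled) every day 8 value lies below every day 4 value, as for Gbp10 with 1.0 to 2.61 FPKM on day 8 against 22.3 to 26.04 FPKM on day 4, while the nanomedicine-ending libraries (open) spread widely.

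As a list, proliferation genes were lower on day 8 and on day 15 than on day 4. Of 34 cell cycle genes tested, all 34 were lower on day 15 than on day 4, with a median of -1.38, 33 had an unadjusted p under 0.05 and 33 did not overlap. None of these 34 passed the adjusted test in limma (smallest adjusted p = 0.0765), and without day 8 replicate 1 it called 29 of them as falling, against 4.24% of all genes. Without the Myl7-rich libraries the median was -0.84, and the part of atrial RNA in the difference was not tested. Cdkn3 (chr14:46760461-46771530), a phosphatase that inactivates Cdk2 and is not in that list, did pass: it was at 5.61, 5.61 and 6.38 FPKM on day 4, 2.74, 2.7 and 1.71 FPKM on day 8, and 2.26, 1.97 and 1.66 FPKM on day 15. It fell by 1.37 ± 0.17 (adjusted p = 0.0328), with all later libraries below day 4.

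Promoters of 4 cell cycle genes with small p-values and a match are printed to show the cell cycle homology region, the element TTTGAA through which the DREAM and MuvB complexes time transcription to mitosis. The stretch shown is the same as above, and capitals mark TTTGAA on either strand (read as TTCAAA on the other).
Kif23 (chr9:61946770-61946919, minus strand): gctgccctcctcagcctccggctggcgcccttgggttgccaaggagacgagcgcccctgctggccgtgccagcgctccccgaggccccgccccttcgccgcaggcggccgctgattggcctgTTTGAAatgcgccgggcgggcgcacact
Kif11 (chr19:37376262-37376411, plus strand): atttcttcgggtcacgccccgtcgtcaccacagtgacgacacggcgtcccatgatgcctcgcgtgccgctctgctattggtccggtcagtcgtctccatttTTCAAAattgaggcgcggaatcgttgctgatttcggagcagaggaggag
Top2a (chr11:99024160-99024309, minus strand): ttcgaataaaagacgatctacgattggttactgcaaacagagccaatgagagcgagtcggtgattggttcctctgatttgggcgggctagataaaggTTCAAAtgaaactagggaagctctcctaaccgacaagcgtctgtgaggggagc
Prc1 (chr7:80294331-80294480, plus strand): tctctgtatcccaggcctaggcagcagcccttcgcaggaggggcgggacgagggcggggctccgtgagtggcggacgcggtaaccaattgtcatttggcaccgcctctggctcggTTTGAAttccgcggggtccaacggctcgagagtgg
The letters TTTGAA were found in the promoters (300 bases) of 16 of the 30 cell cycle genes with an entry (53.3%), and in 14.5% of the 10142 tested genes with an entry. Kif20a is not in the promoter table.

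Top2a, the topoisomerase that untangles chromosomes, was at 9.58, 8.46 and 10.3 FPKM on day 4, 8.24, 3.03 and 3.8 FPKM on day 8, and 3.65, 1.98 and 1.46 FPKM on day 15. Day 8 replicate 1 lay next to day 4, and the day 15 libraries were all below day 4 (-1.87 ± 0.36, adjusted p = 0.0917). Kif20a, a mitotic kinesin, was at 5.76, 4.74 and 6.09 FPKM on day 4, 4.74, 2.39 and 1.97 FPKM on day 8, and 1.97, 1.54 and 1.11 FPKM on day 15 (-1.58 ± 0.28, adjusted p = 0.0765). Mki67, the proliferation antigen Ki-67, was at 4.95 to 6.4 FPKM on day 4 and 1.63 to 3.24 FPKM on day 15. The kinesins Kif23 and Kif11 and the midzone protein Prc1 differed by -1.41, -1.29 and -1.68 (adjusted p = 0.0798, 0.0888 and 0.0988), and cyclin B1, Ccnb1, by -2.01 (adjusted p = 0.085). Between day 4 and day 8 the list median was -0.76, and 17 genes were lower without overlap (5.39% of all genes were). In limma 0 of the list were called (smallest adjusted p = 0.284). Between day 8 and day 15 the list median was -0.58, but 0 genes were lower without overlap (9.15% of all genes were). For that step 0 were called in limma (smallest adjusted p = 0.573).

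Genes of recruited myeloid cells were lower on day 15, with wide spread on day 8. Of 19 genes of monocytes and recruited macrophages, 17 were lower on day 15 than on day 4 and 13 did not overlap (median -1.36, 0 called, smallest adjusted p = 0.175). Without day 8 replicate 1, 6 fell (4.24% of all genes did), and without the Myl7-rich libraries the median was -0.86. Plac8, a gene of inflammatory monocytes, was at 142, 138 and 169 FPKM on day 4, 87.0, 21.4 and 25.3 FPKM on day 8, and 42.9, 10.96 and 55.1 FPKM on day 15. Arg1, the arginase of wound macrophages, was at 24.6, 34.6 and 39.4 FPKM on day 4, 108, 7.08 and 9.64 FPKM on day 8, and 11.5, 0.12 and 2.1 FPKM on day 15. Day 8 replicate 1 was the highest of the 9 libraries for Arg1, and likewise for Spp1, osteopontin, with 149.9 FPKM against 4.92 and 22.7 FPKM in the other day 8 libraries. Ccr2, the receptor through which monocytes leave the marrow, was at 11.8 to 17.9 FPKM on day 4 and 4.53 to 11.4 FPKM on day 15 (-1.10 ± 0.49, adjusted p = 0.311).

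Genes of resident macrophages moved less. Their list median was -0.38 on day 15, with 6 of 20 lower without overlap (18.9% of all genes were). Mrc1, the mannose receptor, was at 32.9, 27.96 and 28.4 FPKM on day 4, between 19.02 and 26 FPKM on day 8, and 17.7, 12.0 and 17.1 FPKM on day 15, so each later group lay below the one before (-0.93 ± 0.17, adjusted p = 0.0791). Lyve1, a hyaluronan receptor of resident macrophages and lymphatic vessels, did not follow this order, with 16.8 to 21.9 FPKM on day 4 and 12.6 to 48.5 FPKM on day 15. The phagocytosis and lysosome genes had a median of -0.50 (-0.32 without the Myl7-rich libraries), with 16 of 20 lower without overlap, among them Axl, a receptor for dead cells, at 72.2 to 75.2 FPKM on day 4 and 48.5 to 55.9 FPKM on day 15 (adjusted p = 0.0886).

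Neutrophil genes had no common direction. Of 13 tested, 10 were lower and 3 higher on day 15 than on day 4. Without overlap, 2 were lower and 2 higher (18.9% and 10.6% of all genes were). In limma 0 were called and none had an unadjusted p under 0.05. Ngp and Camp were below 1 FPKM in every day 4 library and entered the test through later ones, so counts that hold them are descriptions. The list median was -0.64, and 0.02 without the Myl7-rich libraries. S100a8, an alarmin of neutrophils, was at 117, 53.8 and 49.0 FPKM on day 4, 291, 13.4 and 25.8 FPKM on day 8, and 163, 4.23 and 61.6 FPKM on day 15, and the groups overlapped fully (-0.91 ± 1.42, adjusted p = 0.784). Il1b, interleukin-1 beta, was at 35.6, 4.69 and 11.9 FPKM on day 4 and 6.55, 0.89 and 7.08 FPKM on day 15. Il6 was at 7.72, 0.88 and 4.64 FPKM on day 4 and 0.08 to 0.41 FPKM on day 15, without overlap (-2.41 ± 0.87, adjusted p = 0.245). The monocyte chemokines Ccl2 and Ccl7 had overlapping groups, with day 15 replicate 3 at 52.6 and 70.2 FPKM. Of 20 inflammatory genes tested, 18 were lower on day 15, 3 of them without overlap (18.9% of all genes were), and 0 were called in limma, where 5 had an unadjusted p under 0.05. Cxcl10, a lymphocyte chemokine that interferon induces, was at 26.2 to 37.2 FPKM on day 4, 18.0, 3.74 and 3.97 FPKM on day 8 and 3.72 to 11.4 FPKM on day 15 (-2.13 ± 0.58, adjusted p = 0.163).

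Genes of B and plasma cells were higher on day 8 than on day 4 and less so on day 15. Jchain (chr5:88519809-88527897), the joining chain of secreted antibodies, was at 1.7, 0.52 and 5.22 FPKM on day 4, 43.9, 43.6 and 23.4 FPKM on day 8, and 25.1, 18.5 and 47.6 FPKM on day 15. It rose by 3.94 ± 0.60 by day 8 (adjusted p = 0.0456), all later libraries were above day 4, and the difference at day 15 was 3.61 ± 0.60 (adjusted p = 0.0704). The B cell receptor subunit Cd79a was at 1.08 to 2.6 FPKM on day 4, 4.53 to 17.1 FPKM on day 8 and 3.33 to 5.41 FPKM on day 15, and Ms4a1, the B cell antigen CD20, at 0.1 to 0.42, 1.17 to 2.93 and 0.36 to 0.63 FPKM. Mzb1, a chaperone of antibody-secreting cells, was at 2.09 to 3.96 FPKM on day 4, 9.37 to 12.1 FPKM on day 8 and 3.86 to 11.5 FPKM on day 15 (adjusted p = 0.0898 for day 8 and 0.176 for day 15 against day 4). Ms4a1 reached 1 FPKM only on day 8 and so was tested because it was high there, and counts that hold it are descriptions. Of the 7 genes tested, 7 were higher on day 8 than on day 4, 6 without overlap (9.17% of all genes were). On day 15, 5 were higher and 2 lower than on day 4, with a median of 0.27, 2 without overlap and 0 called, and the 2 without overlap were Jchain and Cd79a. All 7 were lower on day 15 than on day 8, 4 without overlap (9.15%). The T and NK cell list had a median of -0.44 between day 4 and day 15, which was 0.29 without the Myl7-rich libraries. Only 1 of its 15 genes was lower without overlap (18.9% of all genes were), Gzma, a granzyme. That count is too small to be read as a result. The fat and mesothelium genes described above were higher on day 8 too, and their part in these differences was not tested.

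Scar matrix genes were lower on day 15 than on day 4, while day 8 replicate 1 was the highest library for many of them, Col1a1 and Postn included. Col1a1, the main collagen of scar, was at 624, 522 and 755 FPKM on day 4, 1264, 216 and 240.1 FPKM on day 8, and 322, 76.0 and 74.0 FPKM on day 15. The day 15 libraries lay below day 4, but the spread within day 8 and day 15 was large and the difference did not pass (-2.36 ± 0.75, adjusted p = 0.207). Col3a1, the collagen of granulation tissue, had the same order, with 1273 to 1681 FPKM on day 4 and 185 to 785 FPKM on day 15 (adjusted p = 0.167). In the list of collagens, 17 of 18 were lower on day 15, 11 without overlap (18.9% of all genes), with a median of -1.07 and 0 called. Without day 8 replicate 1, the test called 6 of the 18 as falling (4.24% of all genes). Against the day 4 mean the collagen median was -0.43, -1.11 and -1.74 in day 15 replicates 1, 2 and 3, where the atrial median was 0.27, 1.65 and 4.84. Without the Myl7-rich libraries, replicates 2 and 3 among them, the collagen difference was -0.43, and the part of atrial RNA was not tested. In bulk tissue, fewer cells of a type and less RNA per cell cannot be told apart, for this list and for the others.

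Genes that shape and link collagen did likewise. Lox, lysyl oxidase, was at 35.8, 34.5 and 47.0 FPKM on day 4, 66.7, 11.8 and 12.0 FPKM on day 8, and 14.9, 2.44 and 8.23 FPKM on day 15 (-2.42 ± 0.75, adjusted p = 0.198). Loxl4, a weaker expressed family member, was at 1.46 to 1.75 FPKM on day 4, 0.78 to 1.02 FPKM on day 8 and 0.6 to 0.82 FPKM on day 15 (-0.77 ± 0.15, adjusted p = 0.0935). Serpinh1, the collagen chaperone, was at 447 to 485 FPKM on day 4 and 225 to 318 FPKM on day 15. Of 22 such genes, 21 were lower on day 15 and 15 did not overlap (median -0.64). Leaving out day 8 replicate 1, 9 fell (4.24% of all genes did).

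Markers of activated fibroblasts were lowest on day 15. Acta2, smooth muscle actin, was at 263, 250.3 and 250.1 FPKM on day 4, 239, 297 and 198 FPKM on day 8, and 155, 105 and 46.9 FPKM on day 15, so day 15 lay below both earlier groups (-1.47 ± 0.37, adjusted p = 0.149). Postn, periostin, was at 176, 235 and 389 FPKM on day 4, 792, 138 and 156 FPKM on day 8, and 122.6, 38.2 and 32.8 FPKM on day 15 (adjusted p = 0.218). Cthrc1, a secreted marker of matrix-producing fibroblasts, was at 57.3, 61.2 and 89.5 FPKM on day 4, 106, 17.1 and 25.5 FPKM on day 8, and 19.4, 0.8 and 4.0 FPKM on day 15 (-3.81 ± 0.96, adjusted p = 0.149). The myofibroblast list had a median of -0.58 at day 15 (-0.28 without the Myl7-rich libraries) with 11 of 17 lower without overlap (18.9% of all genes were). Genes of resting fibroblasts changed by less, with a median of -0.26, and Pdgfra, their growth factor receptor, was at 21.6 to 23.6 FPKM on day 4 and 14.6 to 16.4 FPKM on day 15.

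Provisional matrix and its proteases went the same way. Tnc, tenascin C, was at 21.9, 33.0 and 38.0 FPKM on day 4, 75.03, 3.12 and 9.83 FPKM on day 8, and 8.53, 1.13 and 0.92 FPKM on day 15 (-3.48 ± 1.08, adjusted p = 0.2). Timp1, an inhibitor of matrix metalloproteinases, was at 302, 231 and 280.3 FPKM on day 4, 275, 37.5 and 34.0 FPKM on day 8, and 84.7, 9.71 and 24.0 FPKM on day 15 (-3.28 ± 0.91, adjusted p = 0.174). Mmp3, stromelysin, overlapped between days, with day 15 replicate 3 at 46.4 FPKM. In the matricellular list 13 of 24 genes were lower on day 15 without overlap (median -0.80), where 18.9% of all genes were. In the protease list the count was 10 of 23 (median -0.62). Without the Myl7-rich libraries these medians were -0.32 and -0.09. A small set of cartilage and tendon matrix genes ran against this: Fmod, fibromodulin, which organises collagen fibrils, was at 0.59, 0.93 and 2.05 FPKM on day 4, 14.2, 15.2 and 5.02 FPKM on day 8, and 11.2, 9.38 and 4.73 FPKM on day 15 (2.42 ± 0.49, adjusted p = 0.102). Angptl7, a secreted angiopoietin-like protein of that list, rose by day 8 (adjusted p = 0.0336), from 1.22 to 1.49 FPKM to 6.64 to 8.56 FPKM. Comp, cartilage oligomeric matrix protein, was at 2.23 to 5.95 FPKM on day 4 and 12.2 to 25.8 FPKM on day 15 (adjusted p = 0.23), whereas Cilp, of cartilage intermediate layer, overlapped between these days. Chad, chondroadherin, was at 0.14 FPKM or below on day 4 and at 0.05, 4.56 and 3.14 FPKM on day 15 (adjusted p = 0.406). This list of 16 tested genes had a median of -0.10 (-0.02 without the Myl7-rich libraries). Without overlap, 4 were higher and 1 lower (10.6% and 18.9% of all genes were). Chad and Chrdl1 were below 1 FPKM in every day 4 library and entered the test through later ones, so counts that hold them are descriptions.

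**Figure D5:**
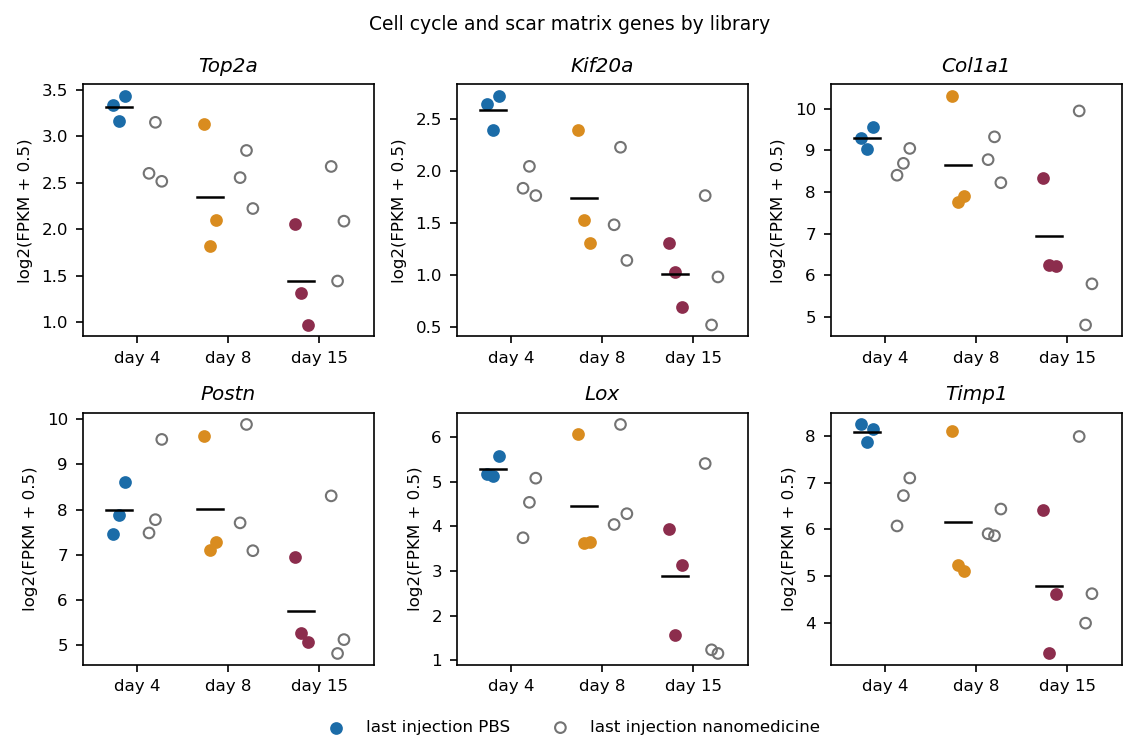
Levels of the cell cycle genes Top2a and Kif20a and of the matrix genes Col1a1, Postn, Lox and Timp1 as log2(FPKM + 0.5) by tissue day, drawn as in the plot of fat, mesothelium and atrial genes. In the PBS-ending libraries (filled) all 3 day 15 values lie below all 3 day 4 values in each panel, and day 8 spreads widely, from 216 to 1264 FPKM for Col1a1.

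Endothelial and heart muscle genes differed little between day 4 and day 15. Kdr, the main receptor for vascular endothelial growth factor, was at 66.4 to 81.6 FPKM on day 4 and 66.4 to 77.6 FPKM on day 15. The endothelial list had a median of 0.09 (0.05 without the Myl7-rich libraries) with 5 of 23 higher without overlap (10.6% of all genes were). Among these 5 was Gpihbp1, which anchors lipoprotein lipase to capillaries, at 156 to 169 FPKM on day 4 and 203 to 271 FPKM on day 15 (adjusted p = 0.192). All 20 sarcomere genes were higher on day 15, 13 without overlap (10.6% of all genes), but the median was only 0.27 and 0 were called in limma, where 10 had an unadjusted p under 0.05. Myoz2, a Z-disc protein, was at 817, 914 and 838 FPKM on day 4, 775, 1044 and 1069 FPKM on day 8, and 1144, 1301 and 1174 FPKM on day 15 (0.49 ± 0.13, adjusted p = 0.161). All 27 respiratory chain and citrate cycle genes were higher on day 15, 22 without overlap, with a median of 0.29, as in Cox4i1, a subunit of cytochrome c oxidase, at 3263 to 3778 FPKM on day 4 and 4153 to 4568 FPKM on day 15 (0.35 ± 0.12, adjusted p = 0.226). Of 27 fatty acid oxidation genes, 26 were higher (median 0.22), and Cpt1b, which carries fatty acids into mitochondria, was at 222 to 238 FPKM on day 4, 165, 238 and 271 FPKM on day 8, and 272 to 292 FPKM on day 15. Ppargc1a, a coactivator of mitochondrial genes, was at 8.4 to 8.95 FPKM on day 4 and 9.37 to 11.1 FPKM on day 15 (adjusted p = 0.475). Without day 8 replicate 1, 3 sarcomere genes, 5 respiratory genes and 1 fatty acid oxidation gene rose, where 1.03% of all genes did. The count of 1 is too small to be read as a result.

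The fetal and wall stress genes had no common direction. Nppb, brain natriuretic peptide, was at 282, 372 and 568 FPKM on day 4 and 262, 388 and 590.2 FPKM on day 15. Ankrd1, a stretch-induced repeat protein, was at 934, 1112 and 1561 FPKM on day 4 and 516 to 643 FPKM on day 15 (-1.02 ± 0.29, adjusted p = 0.179). Myh7, the slow myosin of the fetal ventricle, was at 22.2 to 26.3 FPKM on day 4 and 27.4, 28.8 and 161 FPKM on day 15. Acta1, skeletal actin, was at 184, 197 and 323 FPKM on day 4 and 232, 297 and 304 FPKM on day 15, with overlap. The circadian list had a median of 0.21 at day 15, and Per1, a clock repressor, was at 4.27 to 4.9 FPKM on day 4 and 5.15 to 16.1 FPKM on day 15. Arntl, the clock activator BMAL1, was at 8.9 to 18.6 FPKM on day 8 and 6.0 to 10.8 FPKM on day 15, and its target Dbp at 21.5 to 62.1 FPKM and then 44.9 to 108 FPKM. The hour at which hearts were taken is not given in the labels, and its part was not tested. Red cell genes were higher later in the course: Hba-a1, alpha globin, was at 1995 to 2595 FPKM on day 4, 4595 to 10070 FPKM on day 8 and 3509 to 7135 FPKM on day 15 (1.07 ± 0.34, adjusted p = 0.204), and how much blood each heart held was not recorded.

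Day 8 was also examined as a middle point. No gene passed the test between day 8 and day 15 in limma, with 1088 genes at an unadjusted p under 0.05 (8.56%, 1.78% higher and 6.78% lower) and a smallest adjusted p of 0.573, and none passed for day 8 against the mean of days 4 and 15, where 801 genes had an unadjusted p under 0.05 (6.3%, 4.6% higher and 1.71% lower). The smallest adjusted p of that second contrast, 0.0807, belonged to Prss35, a protein related to serine proteases, named here after its values were seen. It was at 0.2, 0.15 and 0.27 FPKM on day 4, 1.91, 1.91 and 1.87 FPKM on day 8, and 0.66, 0.73 and 0.42 FPKM on day 15, a log2 difference of 1.77 ± 0.17 between day 4 and day 8 (adjusted p = 0.0208). It reached 1 FPKM only on day 8 and so was tested because it was high there, which makes these p-values a description. Osr1, a transcription factor of mesenchymal progenitors, was at 3.86 to 4.78 FPKM on day 4, 8.05 to 10.6 FPKM on day 8 and 5.48 to 5.63 FPKM on day 15, and rose by 1.03 ± 0.11 by day 8 (adjusted p = 0.0209). Wnt4, a secreted Wnt ligand, rose by 2.18 ± 0.34 by day 8 (adjusted p = 0.0456), with 0.35 to 0.47 FPKM on day 4, 2.69 to 5.22 FPKM on day 8 and 0.74 to 2.5 FPKM on day 15. Wnt4 was below 1 FPKM in every day 4 library and so was tested because it was high later, which makes its p-value a description. Gfra1, the receptor for glial cell line-derived neurotrophic factor, stayed low after day 4: it was at 8.5, 8.59 and 8.08 FPKM on day 4, 4.11, 4.93 and 4.0 FPKM on day 8 and 4.94, 4.1 and 4.72 FPKM on day 15, and fell by 0.81 ± 0.10 by day 15 (adjusted p = 0.0347). These genes were called in the fit without the atrial score, and with it as a covariate no gene was called at day 8. The day 8 count was also 0 without day 4 replicate 2 and in 1 fit of all 18 libraries. The part of atrial RNA in these calls was not tested.

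The course was set against that of the 9 libraries whose last injection was a nanomedicine. Their groups had received aNMP-2a on day 3 (day 4), aNMP-2a and aNMP-2b (day 8), or aNMP-2a, aNMP-2b and aNMP-2c (day 15). No gene passed the interaction test of the day 15 against day 4 change across all 18 libraries in limma, where 613 genes had an unadjusted p under 0.05 (4.82%). With 3 libraries a group, this does not show that the changes were equal. The smallest p-values belonged to H2-Q7, a nonclassical MHC class I gene, with Fam214a, Tm4sf5, Vcpkmt and Nubp1 (adjusted p = 0.954 for each). H2-Q7 was at 88.0, 68.7 and 86.6 FPKM on day 4 and 60.7, 45.7 and 50.1 FPKM on day 15 in the PBS-ending groups, and at 67.8, 77.9 and 48.6 FPKM and then 89.4, 93.9 and 142 FPKM in the others. The summed FPKM of the interferon response genes was 2556 to 4122 on day 4, 853 to 1049 on day 8 and 816 to 1904 on day 15 in the PBS-ending groups. In the nanomedicine-ending groups it was 2676 to 6003, 3214 to 10100 and 3419 to 6800. No interaction was tested for day 8. The summed cell cycle genes were at 284 to 326, 144 to 281 and 108 to 179 in the course ending in PBS, and at 207 to 265, 165 to 246 and 118 to 229 in the other. Without replicate 1 of the day 15 group that received all 3 nanomedicines, 77 genes passed the interaction test.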

How the data were processed

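Messenger RNA was sequenced in 18 libraries of infarcted mouse hearts, and 9 libraries, 3 a group, form the course. The deposited values are read as FPKM from the values themselves: their sums varied less between libraries when weighted by gene length (CV 1.85%) than plainly (3.81%). Per the submitters' processing notes, HISAT2 2.1.0, Bowtie2 2.2.5, RSEM 1.2.8 and build GRCm38.p6 were used, with roles not given in the sources used here. The 3 deposited tables were joined by gene symbol, with no rescaling, so levels are set across tables. Read depth is unknown. Genes with at least 1 FPKM in 3 of 9 libraries were tested with limma 3.58.1 (R 4.3.3; trended, robust empirical Bayes) on log2(FPKM + 0.5), which understates changes of low genes, with Benjamini-Hochberg adjustment over 12708 genes and 6 residual degrees of freedom. All ± values are SE of log2 differences, n = 3 a group, and the p-values measure only the spread between these samples, which may be technical. The scripts were tested on simulated data. The 9 libraries and the 39 gene lists were chosen with earlier results of these data known. Genes named are those with the largest called changes, the smallest p in a list or a set of anchors, and others named after their values were seen. Promoter sequences are from RefSeq, GRCm38.p6. Alternatives were pseudocount, filter, scaling, weights, model and left-out libraries, 23 in all.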

Additional observations from a re-analysis of the deposited data

How the results depend on the processing

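The count of 19 genes between day 15 and day 4 (14 higher, 5 lower) was 35 with a pseudocount of 0.1, 6 with no filter, 31 after quantile normalization, 920 with array weights (213 higher, 707 lower), 2 with a 2-fold threshold, 0 in 1 fit of all 18 libraries, 0 with the atrial score as covariate, and 1 without the libraries with at least 50 FPKM of Myl7. Rescaling to TPM gave 22, with 13 higher and 9 lower. Both splits differ from the main one. Leaving out each library gave 0 to 665. The 46 genes between day 8 and day 4 became 29 with no filter, 394 with array weights (127 higher, 267 lower), 0 in 1 fit of all 18 libraries, 0 with a 2-fold threshold, 0 with the atrial score, 2 without the Myl7-rich libraries, and 0 to 132 leaving out each library. For day 8 against the mean of days 4 and 15, the count of 0 became 1 with a pseudocount of 1, 1 with no filter, 1 with plain empirical Bayes, 5 with array weights, and 0 to 1 leaving out each library. The interaction count of 0 became 43 with array weights and 0 to 77 leaving out each library. Day 15 against day 8 gave 0 under all alternatives run. With the replicate number as a block, 5 genes were called between day 15 and day 4 and 33 between day 8 and day 4. Same-numbered libraries had correlations of deviations from -0.343 to 0.51, so the numbers were not taken to pair them. No called gene reversed in direction. Of the 39 list medians, 9 changed sign under at least 1 alternative, in 27 cases: those of neutrophils (-0.64 to 0.21), T and NK cells (-0.44 to 0.29), the unfolded protein response (0.13 to -0.41), complement, MHC class II, calcium cycling, fetal and wall stress, immediate early and cartilage matrix genes. Of single-gene results under the alternatives, 4378 stayed the same, 671 lost the call, 138 gained one and 60 moved. Staying the same meant a kept call, or an uncalled difference that shifted by less than the residual spread, whatever its sign. Of list medians, 872 stayed within the spread and 25 moved. The cause was not tested. With 3 libraries a group, an exact permutation test of 1 gene cannot go below 0.1.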

Other observations

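Day 15 replicate 3 differed from its group in genes of protein folding. Hspa5, the main chaperone of the endoplasmic reticulum, was at 256, 339 and 1097 FPKM in the day 15 libraries. The median of the 19 unfolded protein response genes against the day 4 mean was -0.41, -0.22 and 0.82 in replicates 1, 2 and 3. The same library held 10.5 FPKM of Ucp1 and 45.5 FPKM of Scgb1a1.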
